A study of Mus musculus with 11 samples.

Results

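DNA replication and nucleotide synthesis genes are described here in hearts of mice that carry an Hmgn5 transgene and in control hearts, at an adult and a newborn age. The set holds 34 named genes: 5 of origin licensing, 10 of the replicative helicase, 6 of the polymerases and primase, 8 of the clamp, clamp loader and strand processing, 4 of nucleotide synthesis, and Uhrf1. Each gene was read from the microarray probe set that carries its symbol alone and has the highest mean over 11 arrays, which left 34 of 34 genes measured among 18194 genes in all.

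Total RNA of the left ventricle was hybridised to Affymetrix expression arrays, 1 array per heart sample, and the values are log2 signals after robust multi-array averaging (RMA, which summarises the probes of a probe set and brings the arrays to a common scale). The groups were transgenic adult hearts (n = 3), control adult hearts (n = 3), transgenic newborn hearts (n = 3) and control newborn hearts (n = 2), all of C57BL/6 background, with the controls described as wild-type. Transgenic mice carried a FLAG-tagged Hmgn5 cDNA behind a floxed LacZ under the ubiquitous CAG promoter, and alphaMHC-cre, which is active in heart muscle cells, removed the LacZ there. Effects of the Cre recombinase and of Hmgn5, which codes for a nucleosome-binding protein, cannot be told apart in these groups, and the ages in days are not given in the sources used here.

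Before a cell copies its DNA, the origin recognition complex with Cdc6 and Cdt1 loads the MCM ring onto origins, and Cdc45 and the GINS complex then turn that ring into the moving helicase. DNA polymerase alpha with primase starts each strand, polymerases epsilon and delta extend it on the PCNA clamp placed by replication factor C, and Fen1 and Lig1 finish the lagging strand, while ribonucleotide reductase, thymidylate synthase and thymidine kinase feed in the building blocks. E2F transcription factors drive many of these genes as a cell enters S phase, and mouse heart muscle cells largely leave the cell cycle in the first days after birth.

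Markers of heart muscle cells, which were not split by chamber, had a mean over 10 genes between 13.24 and 13.64 on every array. Atrial markers, which bear on the left ventricle label, had a mean over 8 genes of 7.36 to 9.02 in transgenic adult, 8.36 to 9.69 in control adult, 10.30 to 10.74 in transgenic newborn and 10.50 to 10.52 in control newborn arrays, and their part in the results was not tested. Arrays of 1 group correlated at 0.975 to 0.997. The 18S ribosomal control signal set adult replicate 3 of both genotypes apart: it was 8.51, 7.64 and 12.18 in transgenic adult arrays, 8.25, 8.58 and 11.89 in control adult arrays, 10.05 to 10.22 in transgenic newborn arrays, and 10.53 in the higher of the control newborn arrays. The Hmgn5 probe set read 8.26 to 8.71 in transgenic adult and 8.44 to 8.77 in control adult hearts (adjusted p = 0.647). It read 8.56 to 8.84 in transgenic newborn hearts and 8.81 to 8.85 in control newborn hearts (adjusted p = 0.999985). Whether this probe set lies within the cDNA of the transgene is not given in the sources used here, so these values do not check the labels.

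Replication genes were lower in adult than in newborn hearts of both genotypes. In transgenic hearts 29 of the 34 genes fell and 0 rose (limma, Benjamini-Hochberg adjusted over 18194 genes, threshold 0.05), where 39.4% of all genes were called and 19.7% were called lower. In control hearts 27 of 34 fell and 0 rose, where 33.0% of all genes were called and 18.1% were called lower. The median change of the 34 genes was -1.06 in transgenic and -1.16 in control hearts on the log2 scale, beside a median of 0.09 over all genes in each genotype. The mean of the 34 genes per array ran from 5.90 to 6.48 in transgenic adult hearts, from 5.94 to 6.33 in control adult hearts, from 7.66 to 7.73 in transgenic newborn hearts and from 7.59 to 7.63 in control newborn hearts. No adult array reached a newborn one on this mean. By gene, all adult arrays lay below all newborn arrays for 30 of the 34 genes in transgenic hearts, where 24.7% of all genes did so, and for 29 in control hearts, where 28.5% did. In the other direction, all transgenic adult arrays lay above all transgenic newborn arrays for Orc1 and Gmnn, as for 5451 of the 18194 genes. In control hearts this held for none of the 34 genes, and for 6387 of the 18194 genes. In whole tissue, fewer cells that replicate DNA and less RNA per cell cannot be told apart.

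The same 27 genes fell in both genotypes, Pold1 and Tyms passed the threshold in transgenic hearts alone, and Orc1, Gmnn, Pola1, Fen1 and Rpa2 passed it in neither. The transgenic and control age changes share no arrays. Across the 34 genes, which are not independent replicates, the pair of age changes had a Pearson r of 0.975, and their median absolute difference was 0.15 on the log2 scale. The change was further below 0 in control hearts for 18 of the 34 genes. Newborn arrays also lay between the low and the high adult arrays in 18S signal, and age cannot be told apart from how the arrays were made.

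**Figure D1:**
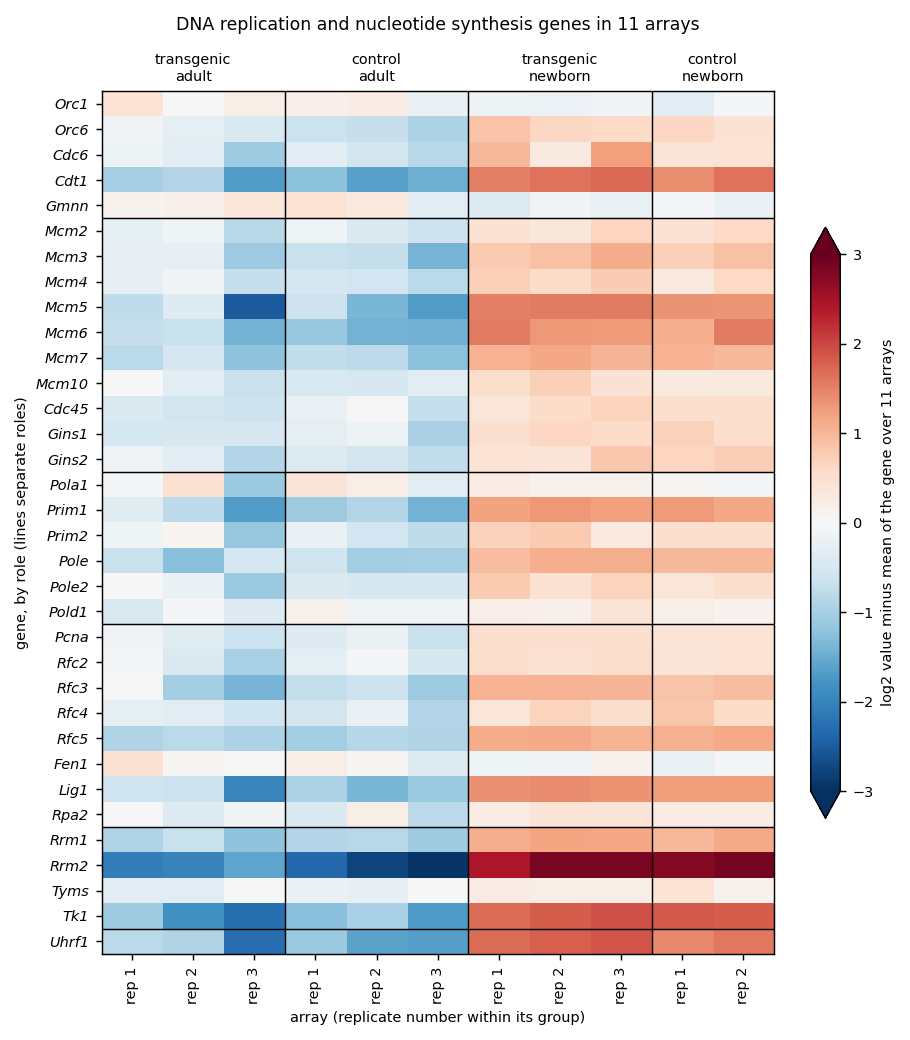
Each row is a gene and each column an array; colour gives the log2 value minus the gene's mean over 11 arrays, in log2 units, with roles separated by lines. The 5 newborn columns are above the mean for most rows, Rrm2 spans the widest range, and Orc1, Gmnn, Pola1, Fen1 and Rpa2 stay pale in the newborn columns.

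Nucleotide synthesis genes held the largest falls. Rrm2, the regulated small subunit of ribonucleotide reductase, read 4.84, 4.92 and 5.34 in transgenic adult hearts, against 9.34, 9.76 and 9.75 in transgenic newborn hearts. It read 4.57, 4.14 and 3.97 in control adult hearts, against 9.67 and 9.78 in control newborn hearts. Adult and newborn arrays were far apart, with no overlap. The log2 change was -4.59 (SE 0.19, adjusted p = 6.93e-08) in transgenic hearts, a 24.0-fold fall, and -5.50 (SE 0.21, adjusted p = 6.58e-08) in control hearts, a 45.2-fold fall. Percentiles were taken among all probe sets of an array. The Rrm2 value stood at percentile 44.5 to 53.0 in transgenic adult hearts and at 28.0 to 39.6 in control adult hearts. In newborn hearts of either genotype it stood at 92.2 to 94.3, so the fold rests on adult signals below or near the middle of the array.

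Tk1, the thymidine kinase of the salvage route that cells make in S phase, was 5.85, 5.11 and 4.65 in transgenic adult hearts, against 8.59, 8.73 and 8.86 in transgenic newborn hearts. Control adult hearts had 5.67, 5.94 and 5.21, against 8.75 and 8.74 in control newborn hearts. Groups of the 2 ages did not overlap, and the spread among adult arrays was wider than among newborn ones. The change was -3.52 in transgenic (SE 0.27, 11.5-fold, adjusted p = 4.43e-06) and -3.13 in control hearts (SE 0.30, 8.78-fold, adjusted p = 2.63e-05). Rrm1, the large subunit of ribonucleotide reductase, moved less: it was 7.37, 7.61 and 7.08 in transgenic adult hearts, against 9.37, 9.47 and 9.44 in transgenic newborn hearts. In control hearts Rrm1 was 7.41, 7.45 and 7.21 at the adult age, against 9.26 and 9.41 in newborns. Both ages were tight for Rrm1, and the falls were -2.07 in transgenic (adjusted p = 1.74e-06) and -1.98 in control hearts (adjusted p = 6.63e-06). Tyms, thymidylate synthase, sat low on every array, at percentile 11.2 to 30.4. Its change was -0.43 in transgenic hearts (adjusted p = 0.0243) and -0.41 in control hearts (adjusted p = 0.0523). Its other probe sets went both ways in transgenic hearts. Their means were 3.36, 3.04 and 3.12 in transgenic adult hearts, against 3.20, 2.75 and 3.34 in transgenic newborn hearts. With the mean of its probe sets, the transgenic change was -0.05 (adjusted p = 0.637).

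All 10 helicase genes fell in each genotype, with medians of -1.06 in transgenic and -1.17 in control hearts. The largest falls were in ring subunits. Mcm5 was 6.60, 6.97 and 4.87 in transgenic adult hearts, against 8.88, 8.92 and 8.93 in transgenic newborn hearts, and 6.75, 6.00 and 5.69 in control adult hearts, against 8.71 and 8.69 in control newborn hearts. Replicate 3 was the lowest adult array of both genotypes, and adult and newborn arrays did not overlap. The change was -2.77 (SE 0.45, adjusted p = 0.000815) in transgenic and -2.55 (SE 0.50, adjusted p = 0.00292) in control hearts. Mcm6 was 6.47, 6.47 and 5.73 in transgenic adult hearts, against 8.71, 8.45 and 8.42 in transgenic newborn hearts, and 6.01, 5.74 and 5.70 in control adult hearts, against 8.25 and 8.72 in control newborn hearts. Its change was -2.30 (adjusted p = 1.57e-05) in transgenic and -2.67 (adjusted p = 1.45e-05) in control hearts, with no overlap of the ages. Mcm7 was 8.20, 8.51 and 7.81 in transgenic adult hearts, against 10.06, 10.18 and 10.03 in transgenic newborn hearts, and 8.28, 8.24 and 7.78 in control adult hearts, against 10.06 and 9.99 in control newborn hearts. The ages were again apart on every array, with the same change of -1.92 in both genotypes (adjusted p = 2.2e-05 in transgenic and 5.31e-05 in control hearts).

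The other ring subunits fell too. Mcm4 was 7.33, 7.50 and 6.89 in transgenic adult hearts, against 8.31, 8.14 and 8.34 in transgenic newborn hearts, and 7.07, 7.00 and 6.78 in control adult hearts, against 7.87 and 8.18 in control newborn hearts. The ages did not overlap, with a change of -1.02 in transgenic and -1.07 in control hearts. Mcm3 changed by -1.45 in transgenic and -1.72 in control hearts, and Mcm2 by -0.88 in transgenic and -0.92 in control hearts. Mcm10, which helps start the helicase, changed by -0.90 in transgenic and -0.72 in control hearts. Cdc45, the helicase cofactor, was 5.38, 5.27 and 5.20 in transgenic adult hearts, against 6.17, 6.37 and 6.48 in transgenic newborn hearts, and 5.59, 5.80 and 5.11 in control adult hearts, against 6.29 and 6.33 in control newborn hearts. On this probe set all adult arrays were below all newborn arrays, and the change was -1.06 in transgenic and -0.81 in control hearts. The other Cdc45 probe set went the other way by its means. They were 5.88 in transgenic adult against 5.59 in transgenic newborn hearts, and 5.98 in control adult against 5.56 in control newborn hearts. Gins1 and Gins2, subunits of the GINS complex, changed by -1.07 and -0.97 in transgenic hearts, and by -1.07 and -1.26 in control hearts. Adjusted p-values of these 7 genes ran from 0.000641 to 0.00442 in transgenic hearts and from 0.000915 to 0.00909 in control hearts.

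In the licensing group, Cdt1, which brings the MCM ring to origins, had the largest fall. It read 5.93, 6.04 and 5.26 in transgenic adult hearts, against 8.44, 8.56 and 8.64 in transgenic newborn hearts, and 5.70, 5.29 and 5.47 in control adult hearts, against 8.32 and 8.55 in control newborn hearts. The age groups were far apart, with a change of -2.80 (SE 0.19, 6.97-fold, adjusted p = 2.18e-06) in transgenic and -2.95 (SE 0.22, 7.74-fold, adjusted p = 3.91e-06) in control hearts. Orc6, a small subunit of the origin recognition complex, was 6.64, 6.44 and 6.29 in transgenic adult hearts, against 7.59, 7.36 and 7.32 in transgenic newborn hearts, and 6.10, 6.05 and 5.80 in control adult hearts, against 7.36 and 7.16 in control newborn hearts. Its change was -0.97 in transgenic (adjusted p = 0.00031) and -1.28 in control hearts (adjusted p = 0.000112). Cdc6, the loading ATPase, was among the lowest signals in adult hearts, at percentile 1.94 to 17.7. It was 3.53, 3.36 and 2.61 in transgenic adult hearts, against 4.65, 3.96 and 4.90 in transgenic newborn hearts, and 3.36, 3.13 and 2.86 in control adult hearts, against 4.07 and 4.08 in control newborn hearts. The ages did not overlap, and the change was -1.34 in transgenic (adjusted p = 0.00329) and -0.96 in control hearts (adjusted p = 0.0324). Gmnn, geminin, which binds Cdt1 and blocks further loading, had a change of 0.44 in transgenic (adjusted p = 0.0687) and 0.28 in control hearts (adjusted p = 0.297). Orc1, the large ATPase subunit of the origin complex, had 0.34 in transgenic (adjusted p = 0.0818) and 0.25 in control hearts (adjusted p = 0.245).

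Among polymerases, Prim1, the catalytic primase subunit, was 6.62, 6.19 and 5.29 in transgenic adult hearts, against 8.18, 8.28 and 8.19 in transgenic newborn hearts, and 5.91, 6.11 and 5.54 in control adult hearts, against 8.25 and 8.14 in control newborn hearts. Pole, the catalytic subunit of polymerase epsilon, was 4.93, 4.34 and 5.07 in transgenic adult hearts, against 6.53, 6.69 and 6.69 in transgenic newborn hearts, and 4.99, 4.57 and 4.61 in control adult hearts, against 6.57 and 6.60 in control newborn hearts. Newborn arrays lay above all adult arrays for both genes. Prim1 changed by -2.19 (adjusted p = 0.000151) in transgenic and -2.34 (adjusted p = 0.000226) in control hearts, and Pole by -1.86 in each genotype (adjusted p = 2.99e-05 in transgenic and 7.04e-05 in control hearts). Pole2, the partner subunit of Pole, was 5.74, 5.55 and 4.63 in transgenic adult hearts, against 6.53, 6.21 and 6.41 in transgenic newborn hearts, and 5.31, 5.27 and 5.26 in control adult hearts, against 6.11 and 6.24 in control newborn hearts. Its ages did not overlap, and the change was -1.07 in transgenic (adjusted p = 0.00467) and -0.89 in control hearts (adjusted p = 0.0234). Prim2, the other primase subunit, also passed the threshold in transgenic (adjusted p = 0.0155) and in control hearts, at -1.01 in the control hearts (adjusted p = 0.0283). One other Prim2 probe set had means of 5.57 in transgenic adult against 5.67 in newborn hearts, and 5.49 against 5.72 in controls. Another was higher in adults, at 4.73 against 4.42 in transgenic and 4.60 against 4.53 in control hearts. The mean of its probe sets gave -0.26 in transgenic (adjusted p = 0.273) and -0.39 in control hearts (adjusted p = 0.171). Pold1, the catalytic subunit of polymerase delta, fell by 0.55 in transgenic hearts (adjusted p = 0.00973) and had a change of -0.18 in control hearts (adjusted p = 0.364). Pola1, the catalytic subunit of polymerase alpha, had a change of -0.39 in transgenic (adjusted p = 0.349) and 0.09 in control hearts (adjusted p = 0.854).

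Rfc5, a clamp loader subunit, had the narrowest spread of the set. It was 5.38, 5.49 and 5.37 in transgenic adult hearts, against 7.41, 7.43 and 7.33 in transgenic newborn hearts, and 5.26, 5.44 and 5.39 in control adult hearts, against 7.36 and 7.42 in control newborn hearts. Its change was -1.98 (SE 0.10, adjusted p = 2.29e-07) in transgenic and -2.03 (SE 0.11, adjusted p = 4.61e-07) in control hearts. Lig1, the ligase that seals lagging-strand fragments, was 5.97, 5.91 and 4.59 in transgenic adult hearts, against 7.93, 7.98 and 7.90 in transgenic newborn hearts, and 5.62, 5.20 and 5.44 in control adult hearts, against 7.80 and 7.81 in control newborn hearts. Replicate 3 stood lowest among the transgenic adult arrays, and the ages did not overlap, with changes of -2.45 (adjusted p = 0.000126) in transgenic and -2.39 (adjusted p = 0.000347) in control hearts. Pcna, the sliding clamp, was 10.62, 10.36 and 10.07 in transgenic adult hearts, against 11.23 on each of the 3 transgenic newborn arrays, and 10.34, 10.53 and 10.06 in control adult hearts, against 11.12 and 11.14 in control newborn hearts. Its change was small but held on every array, at -0.88 (adjusted p = 0.0014) in transgenic and -0.82 (adjusted p = 0.00445) in control hearts. Rfc3, another clamp loader subunit, was 6.56, 5.55 and 5.17 in transgenic adult hearts, against 7.61, 7.62 and 7.59 in transgenic newborn hearts, and 5.85, 5.94 and 5.49 in control adult hearts, against 7.43 and 7.49 in control newborn hearts. Adult arrays were spread and newborn arrays tight, with changes of -1.85 (adjusted p = 0.000529) in transgenic and -1.70 (adjusted p = 0.00201) in control hearts. Rfc4, of the same complex, was 6.94, 6.87 and 6.63 in transgenic adult hearts, against 7.57, 7.89 and 7.69 in transgenic newborn hearts, and 6.67, 7.00 and 6.33 in control adult hearts, against 8.06 and 7.77 in control newborn hearts. The ages were apart, with changes of -0.90 (adjusted p = 0.00237) in transgenic and -1.25 (adjusted p = 0.000677) in control hearts. Rfc2, a further subunit, changed by -0.98 in transgenic (adjusted p = 0.00317) and -0.67 in control hearts (adjusted p = 0.0386). Rpa2, a subunit of the single-strand binding complex, had -0.49 in transgenic (adjusted p = 0.0811) and -0.58 in control hearts (adjusted p = 0.0765).

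Uhrf1, which recognises newly copied, hemimethylated DNA and recruits the maintenance methyltransferase, read 4.79, 4.69 and 3.30 in transgenic adult hearts, against 7.28, 7.38 and 7.47 in transgenic newborn hearts. In control hearts it read 4.47, 3.99 and 3.95 at the adult age, against 7.03 and 7.18 in newborns. The ages were apart by more than 2 log2 units on every array, and the change was -3.12 (SE 0.32, adjusted p = 4.3e-05) in transgenic and -2.97 (SE 0.36, adjusted p = 0.000147) in control hearts. The adult signals were low on the scale, at percentile 14.0 to 43.6 of all probe sets in transgenic adult and 27.4 to 37.6 in control adult hearts. The other Uhrf1 probe set fell less, with -1.87 in transgenic (adjusted p = 4.05e-05) and -1.21 in control hearts (adjusted p = 0.00136).

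**Figure D2:**
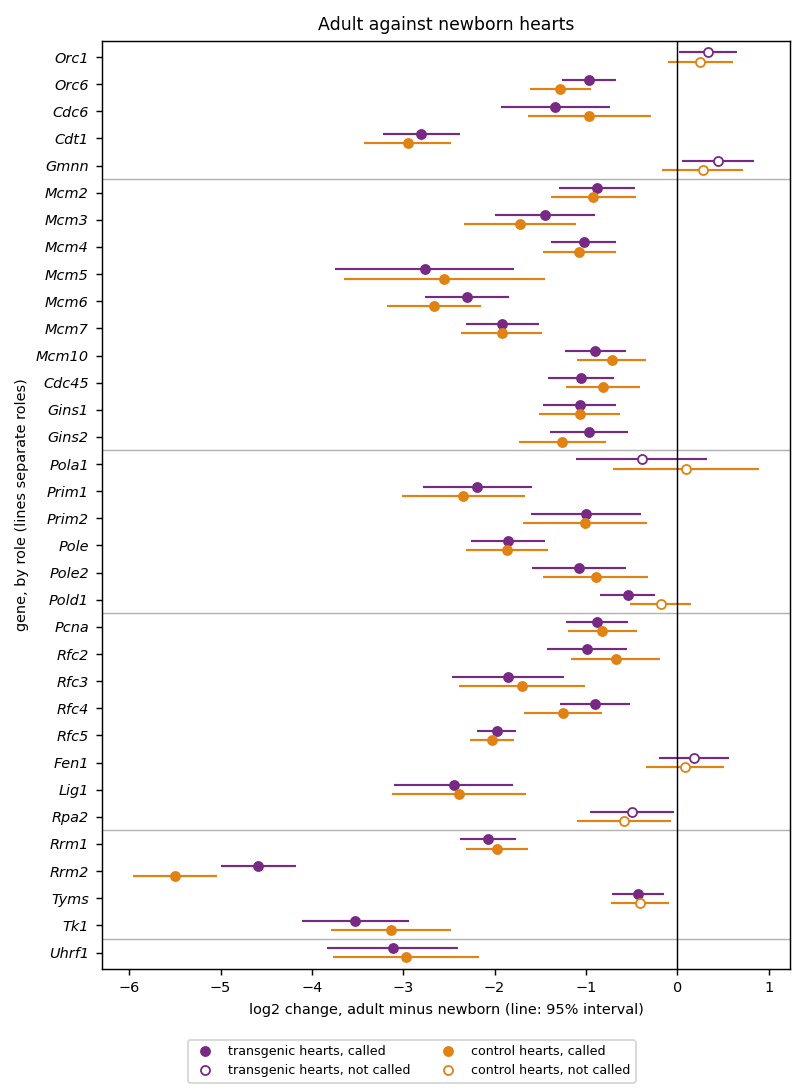
Points give the log2 change of each gene, adult minus newborn, in transgenic and control hearts, with lines for 95% intervals; filled points passed an adjusted p of 0.05. The genotypes lie close to each other for most genes, and Rrm2 stands furthest left at -4.59 in transgenic and -5.50 in control hearts.

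Of the 34 genes, 26 had more than 1 probe set with their symbol alone, and the 75 probe sets in all were tested across all probe sets of the arrays. Of the 41 other probe sets, 20 were called lower and 2 higher in transgenic adult against newborn hearts, and 19 lower and 1 higher in control hearts. Fen1, the flap endonuclease, depended on the probe set. Its brightest one, with the suffix _x_at that marks probes which may match other transcripts, was 9.27, 8.85 and 8.80 in transgenic adult, 9.02, 8.86 and 8.44 in control adult, 8.70, 8.72 and 8.95 in transgenic newborn, and 8.59 and 8.79 in control newborn hearts. The other Fen1 probe set was 6.32, 5.94 and 6.00 in transgenic adult, 6.13, 6.02 and 5.32 in control adult, 7.27, 7.34 and 7.42 in transgenic newborn, and 7.18 in each of the control newborn hearts. The brightest probe set gave an age change of 0.18 in transgenic and 0.08 in control hearts, and the other one -1.26 in transgenic (adjusted p = 0.00126) and -1.36 in control hearts (adjusted p = 0.00171). Another Mcm10 probe set was called higher in control adult hearts, at 0.68 (adjusted p = 0.0239), against the fall of its brightest one. All 3 Rrm2 probe sets fell, with changes of -3.09, -4.59 and -4.70 in transgenic hearts and -3.19, -5.50 and -4.96 in control hearts.

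**Figure D3:**
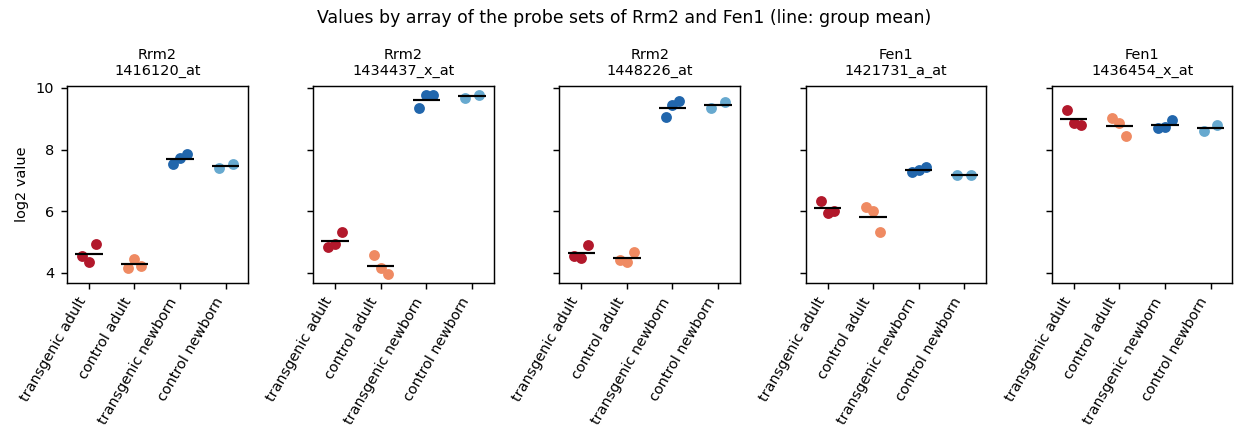
Each panel shows 1 probe set of Rrm2 or Fen1, with a point per array on the log2 scale and a line at the group mean. All 3 Rrm2 probe sets are high in newborn hearts, whereas newborn and adult arrays separate on only 1 of the Fen1 probe sets.

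Promoters of these genes were read for the letters of the E2F consensus, because E2F factors drive S phase genes. The letters searched were TTTCCCGC, TTTCGCGC, TTTGCCGC and TTTGGCGC on both strands, in RefSeq promoters (GRCm38.p6) from 250 bases before to 50 after each gene start. The windows of the licensing and helicase genes with a match follow in gene orientation, ordered by their p in control adult against newborn hearts, with the matched letters in capitals.
Cdt1: aactaccttTTTGGCGCcatggcgca
Mcm6: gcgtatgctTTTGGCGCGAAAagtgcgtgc
Mcm7: tttcgaaccGCGGGAAAcagggtgtc
Mcm3: acttccgtgGCGGGAAAacttgggaa
Mcm5: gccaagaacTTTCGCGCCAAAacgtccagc
Cdc6: cggtggagaGCGGGAAAtcgcctggg
Orc1: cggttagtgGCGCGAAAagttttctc

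The Cdt1 window is chr8:122568038-122568063 on the plus strand, with its match starting at position 33 after the gene start. The Mcm6 window is chr1:128359795-128359824 on the minus strand, where 2 matches on opposite strands overlap from position -110. For Mcm7 the window is chr5:138172032-138172057 (minus strand, match at -165), for Mcm3 chr1:20820277-20820302 (minus strand, match at 20), for Mcm5 chr8:75109347-75109376 (plus strand, 2 overlapping matches from -153), for Cdc6 chr11:98908004-98908029 (plus strand, match at -138) and for Orc1 chr4:108579418-108579443 (plus strand, match at -27).

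Of the 27 replication genes with a promoter in the RefSeq table, 13 (48.1%) held at least 1 match. This compares with 550 of 14453 measured genes (3.81%) and 704 of all 27025 genes with a promoter (2.60%). Replication genes with a match outside the windows above were Pola1, Pole2, Pold1, Rfc3, Lig1 and Uhrf1. Genes with a match had a median age change of -1.85 in transgenic and -1.72 in control hearts, and 11 of 13 fell in transgenic and 10 of 13 in control hearts. Genes without one had medians of -0.93 in transgenic and -1.08 in control hearts, and 12 of 14 fell in transgenic and 11 of 14 in control hearts. Rrm2 and Tk1 held none of the letters in this window, and Orc1 and Pola1 held them and passed the threshold in neither genotype. The relation of the letters to the size of the fall was not tested. The letters were also found in 9 of 34 other replication fork genes with a promoter (26.5%), so they were not particular to the 34 genes. They were held by 2 of 26 other nucleotide synthesis genes (7.69%) and 1 of 20 mitosis genes with a promoter. A match is a description of the letters and not a binding site.

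The E2F family itself split in its age change. E2f7 and E2f8, which repress S phase genes, changed by -1.32 and -2.54 in transgenic hearts and by -1.59 and -2.29 in control hearts, all called. The activators E2f2 and E2f3 changed by -0.54 and -0.67 in transgenic and by -0.94 and -1.21 in control hearts, all called, and E2f1 by -0.70 in transgenic (called) and -0.34 in control hearts (adjusted p = 0.344). E2f4 and E2f6, which belong to the repressing arm, were higher in adults, at 0.44 and 0.82 in transgenic and 0.61 and 1.21 in control hearts, all called. E2f5 had 0.65 in transgenic (called) and 0.56 in control hearts (adjusted p = 0.0604). In the whole list of 32 S phase control genes, 20 fell and 5 rose in transgenic hearts, and 20 fell and 2 rose in control hearts. The shares over all genes were 19.7% lower and 19.7% higher in transgenic hearts, and 18.1% lower and 14.9% higher in control hearts.

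Other genes of the same pathways fell in part. Of all genes, 19.7% were called lower and 19.7% higher in transgenic hearts. In control hearts 18.1% of all genes were called lower and 14.9% higher. Of 39 other replication fork genes, 20 fell and 0 rose in transgenic adult against newborn hearts (median -0.50), and 15 fell and 0 rose in control hearts (median -0.24). Dbf4, the activator of the Cdc7 kinase that fires origins, changed by -3.63 in transgenic and -3.92 in control hearts, and Asf1b, a histone chaperone, by -2.10 in each genotype. Of 29 other nucleotide synthesis genes, 13 (44.8%) fell and 1 rose in transgenic hearts (median -0.35). In control hearts 7 fell (24.1%, near the share of all genes) and 1 rose (median -0.22). The gene that rose in both, named after its values were seen, was Rrm2b, the reductase subunit used outside S phase, at 0.54 in transgenic and 0.84 in control hearts. Mitosis genes fell further than replication genes by their median: 23 of 23 fell in transgenic hearts (median -3.77) and 22 of 23 in control hearts (median -4.15), and their array means were 4.33 to 5.19 in transgenic adult, 4.57 to 4.93 in control adult, 8.67 to 8.73 in transgenic newborn and 8.63 to 8.72 in control newborn hearts.

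**Figure D4:**
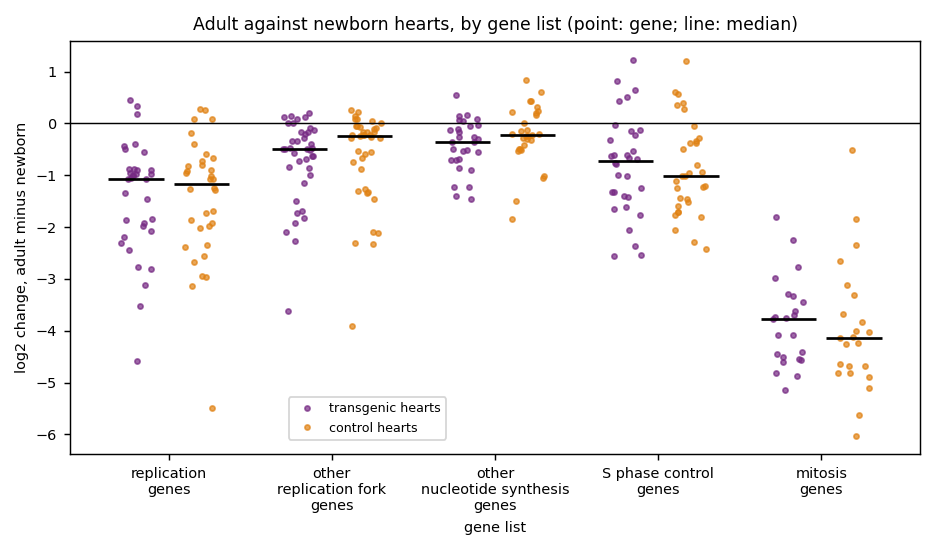
Each point is a gene, placed by its log2 change of adult minus newborn hearts in transgenic and control mice, with a line at the list's median. Mitosis genes lie lowest, with medians of -3.77 in transgenic and -4.15 in control hearts, against -1.06 and -1.16 for the 34 replication genes.

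Some markers of other cell types moved with age too, and their part in the fall of replication genes was not tested. Of all genes, 19.7% were called higher and 19.7% lower in transgenic adult against newborn hearts. In control hearts 14.9% were called higher and 18.1% lower. The marker counts were not tested against these shares, and several of the small ones lie near them. All 9 epicardial markers fell in both genotypes, with array means of 4.95 to 5.31 in transgenic adult, 5.01 to 5.15 in control adult, 6.91 to 7.71 in transgenic newborn and 6.92 to 7.02 in control newborn hearts. Macrophage markers rose, 11 of 12 in transgenic and 10 of 12 in control hearts, with array means of 8.16 to 8.76 in transgenic adult, 7.93 to 8.23 in control adult, 6.37 to 6.75 in transgenic newborn and 6.35 to 6.69 in control newborn hearts. Lymphoid and thymus markers rose for 5 of 11 in transgenic and 7 of 11 in control hearts. Fibroblast markers fell for 4 of 12 and rose for 2 in transgenic hearts, and fell for 6 and rose for 1 in control hearts. Endothelial markers fell for 5 of 10 in transgenic hearts, and fell for 4 and rose for 1 in control hearts. Of 10 heart muscle markers, 1 rose in transgenic hearts, and 2 rose and 1 fell in control hearts. Atrial markers fell for 6 of 8 in transgenic and 3 of 8 in control hearts. Mural markers fell for 4 of 8 in each genotype, with 1 higher in transgenic and 2 higher in control hearts. Of 9 erythroid markers, 1 rose in transgenic hearts, and 1 rose and 1 fell in control hearts, and adipocyte markers rose for 1 of 6 in transgenic and 2 of 6 in control hearts.

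Between genotypes, Rrm2 was the replication gene that passed the threshold in adult hearts. Of the 34 genes, 1 was called higher and 0 lower in transgenic adult against control adult hearts, beside 7.09% of all genes called in either direction, 4.16% higher and 2.93% lower. The median change was 0.07 on the log2 scale, with a range of -0.41 for Tk1 to 0.81 for Rrm2, and 23 genes lay above 0 and 11 below. For 32 of the 34 genes the 95% interval of the change lay within 2-fold either way, and at the median it reached 0.41 to each side. The groups did not overlap for Orc6 and Rrm2, both higher in transgenic hearts, and for none of the members in the other direction, where 10.0% of all genes did not overlap with transgenic higher and 7.94% with transgenic lower.

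On its brightest probe set Rrm2 was 4.84, 4.92 and 5.34 in transgenic adult hearts, against 4.57, 4.14 and 3.97 in control adult hearts. The lowest transgenic array stood above the highest control array. The change was 0.81 (SE 0.19, 95% interval 0.39 to 1.22, adjusted p = 0.0253). The other Rrm2 probe sets gave 0.33 (adjusted p = 0.374) and 0.18 (adjusted p = 0.739) in the fit over all probe sets, where the brightest one had an adjusted p of 0.0475. On one of these, transgenic adult hearts had 4.54, 4.35 and 4.92, against 4.16, 4.46 and 4.21 in control adult hearts, and on the other transgenic adult hearts had 4.55, 4.49 and 4.91, against 4.41, 4.34 and 4.67 in control adult hearts. The groups overlapped on both, and all 3 probe sets read between 3.97 and 5.34 in adult hearts. With the mean of the 3 probe sets as the Rrm2 value, the change was 0.44 (adjusted p = 0.108).

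The comparison gave other values among adult arrays of low than of high 18S signal. Replicate 3 was the lowest transgenic adult array for 26 of the 34 genes, and the lowest control adult array for 27. This was not particular to them: the median over all 18194 genes was also lowest on replicate 3. In order of replicate, that median was 6.31, 6.35 and 6.09 in transgenic adult arrays, and 6.25, 6.23 and 6.13 in control adult arrays. Among the adult arrays with low 18S, 2 per genotype, the median change of the 34 genes was 0.11, with 24 above 0, and Rrm2 differed by 0.53. Between the 2 arrays with high 18S, the median was -0.08, with 15 above 0, and Rrm2 differed by 1.37. When the high 18S arrays were left out, Mcm6 and Lig1 were called higher, and Rrm2, at 0.53, was not called (adjusted p = 0.0852). Without transgenic adult replicate 3 alone, 7 genes were called higher: Orc6, Cdt1, Mcm3, Mcm6, Lig1, Rrm2 and Uhrf1. Leaving out the array that was lowest for 26 of the 34 genes raises the transgenic mean of those genes. The shares of all genes called in these settings are not given here, so the counts are not a result about the replication genes. Without control adult replicate 2 or control adult replicate 3, no replication gene was called; the Rrm2 change was then 0.76 (adjusted p = 0.0925) without replicate 2 and 0.68 (adjusted p = 0.0836) without replicate 3.

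Orc6 was the other gene without overlap, at 6.64, 6.44 and 6.29 in transgenic adult hearts, against 6.10, 6.05 and 5.80 in control adult hearts, and its change of 0.47 (SE 0.13) missed the threshold at an adjusted p of 0.0605. It had the same size among low 18S arrays, 0.46, and between the high 18S pair, 0.49. With the 18S set as a factor, Orc6, Mcm3 and Rrm2 were called higher, and the share of all genes called in that fit is not given here.

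Some related genes outside the 34 were called in adults, where 7.09% of all genes were. Of 39 other replication fork genes, 2 were called higher and 1 lower. Mcm9, an MCM relative that acts in DNA repair, and Tipin, a fork protection factor, were higher in transgenic adult hearts, at 0.79 (adjusted p = 0.0108) and 0.63 (adjusted p = 0.0202), and Top1, which relaxes supercoiled DNA, was lower at -0.50 (adjusted p = 0.0313). Of 29 other nucleotide synthesis genes, 3 rose and 3 fell, and no test set these counts against those of all genes. Shmt1 and Mthfd2, enzymes of folate one-carbon metabolism, rose, at 1.18 (adjusted p = 0.0186) and 0.75 (adjusted p = 0.00741). Dut, which clears dUTP, fell to 8.25, 8.06 and 7.14 in transgenic adult hearts, against 8.85, 9.19 and 8.60 in control adult hearts, a change of -1.06 (adjusted p = 0.0284), with no overlap. Of the 32 S phase control genes, 2 were called, both higher. Ccnd2, a D-type cyclin, and Cdkn2d, a Cdk inhibitor, rose by 0.79 (adjusted p = 0.00424) and 0.65 (adjusted p = 0.0277), and no E2F gene was called.

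Among cell type markers, transgenic adult hearts were called higher than control adult hearts for 4 of 12 macrophage markers, 3 of 12 fibroblast markers, 2 of 8 mural, 2 of 8 atrial, 1 of 9 epicardial and 1 of 10 heart muscle markers. They were called lower for 2 of 8 mural, 1 of 8 atrial and 1 of 10 endothelial markers, and for 0 of 11 lymphoid, 0 of 9 erythroid and 0 of 6 adipocyte markers in either direction. Fibroblast array means were 9.97 to 10.64 in transgenic adult and 9.04 to 9.93 in control adult hearts. Adipocyte array means were 6.55 to 6.64 in transgenic adult hearts and 6.69 to 7.84 in control adult hearts. The part of these cell types in the Rrm2 difference was not tested.

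In newborn hearts no replication gene was called between genotypes, and limma called 0 of 18194 genes (0% in each direction), with 198 at an unadjusted p under 0.05 and 0 of them replication genes. The median change of the 34 genes was 0.10, beside 0.00 over all genes, with a range of -0.20 for Rfc4 to 0.43 for Cdc6. The groups did not overlap for 8 genes, all higher in transgenic newborn hearts, namely Mcm5, Mcm10, Pola1, Pcna, Rfc2, Rfc3, Lig1 and Uhrf1, at 0.10 to 0.27, where 11.1% of all genes did not overlap with transgenic higher and 9.83% with transgenic lower. Rrm2 was 9.34, 9.76 and 9.75 in transgenic newborn hearts, against 9.67 and 9.78 in control newborn hearts, with overlap and a change of -0.10. The 95% interval lay within 2-fold for 31 of the 34 genes, and at the median it reached 0.46 to each side.

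**Figure D5:**
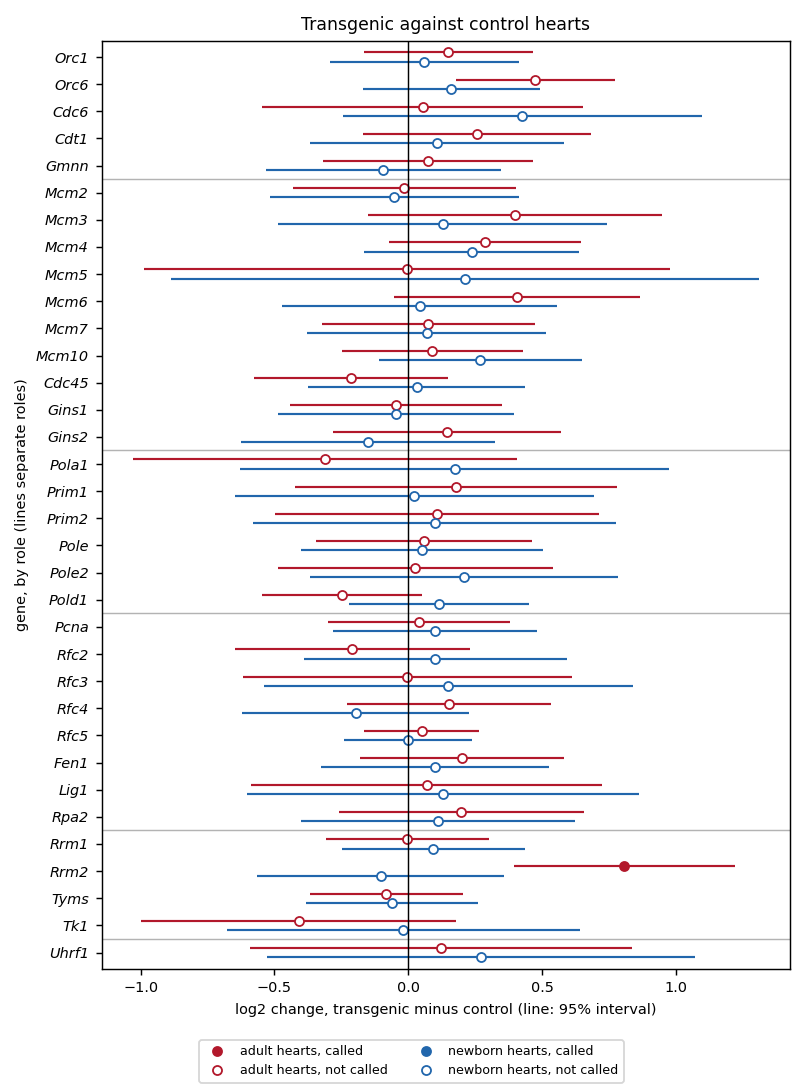
Points give the log2 change of each gene, transgenic minus control, in adult and newborn hearts, with lines for 95% intervals; filled points passed an adjusted p of 0.05. Only adult Rrm2, at 0.81, is filled, and the lines of most genes cross 0 in both ages.

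The change between transgenic and control hearts was set against itself between the ages. For 0 of the 34 genes did this difference pass the threshold, beside 0.687% of all genes (0.445% with a positive and 0.242% with a negative difference), and 1 of the 34 had an unadjusted p under 0.05. For Rrm2 the difference, adult minus newborn, was 0.91 with an adjusted p of 0.23. The median over the 34 genes was 0.01, with 18 above 0 and 16 below.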

How the data were processed

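RNA of the left ventricle from 11 mouse hearts in 4 groups was measured on Affymetrix arrays. The authors deposited log2 expression values per probe set, and the submitters' processing notes name RMA, affy and limma, without versions or order. Array medians lay between 5.12 and 5.18. Probe sets were named from the platform annotation: of 45101, 34958 had 1 symbol, 932 several and 9211 none, and 34754 of the named ones matched RefSeq. Per gene the probe set with the highest mean was kept. limma 3.58.1 in R 4.3.3 was fitted to all 18194 genes and 11 arrays with 1 mean per group and a shared, moderated spread (7 residual and 3.85 prior degrees of freedom). P-values were 2-sided and adjusted by Benjamini-Hochberg over all genes, with a threshold of 0.05. The fit was tested on simulated data.

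The labels call the samples biological replicates, and the number of arrays limits the precision. The members, gene lists and tests were chosen with earlier results of these data known. All 34 replication genes are named, the called ones with values, with values by array for the 3 to 5 genes of a role with the smallest p in any comparison; of other lists, up to 4 called genes with the smallest p, and the E2F family, could be named. The labels do not state a pairing by replicate number, and the main fit used none. Deviations of same-numbered adult arrays correlated at 0.31, -0.06 and 0.45 between genotypes, and those of newborn arrays at 0.18 and -0.15. Adult replicate 3 of both genotypes also shared the high 18S signal, and a block by replicate number was run as an alternative. Alternatives varied the scaling, the probe set rule, the filter, the block, the 18S set, the groups fitted and the arrays included.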

Additional observations from a re-analysis of the deposited data

Results flagged for a closer look

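Cenpf, a kinetochore protein made late in the cell cycle and one of the mitosis genes beside which the replication genes were set, was flagged because its change between transgenic and control hearts differed between the ages. It was 6.01, 6.38 and 5.42 in transgenic adult hearts, against 8.52, 8.28 and 8.58 in control adult hearts, and 8.94, 8.97 and 8.84 in transgenic newborn hearts, against 9.15 and 8.78 in control newborn hearts. The change was -2.52 in adults and -0.05 in newborns, a difference of -2.47 (SE 0.32, limma adjusted p = 0.00713). Of the 23 mitosis genes it was the one called in adults, and the median of that list was 0.22. No replication gene was flagged.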

How the results depend on the processing

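Up to 23 other settings were run per comparison. In transgenic adult against control adult hearts, where 1 gene was called, the count was 2 with the replicate block, 2 with cyclic loess scaling, 3 with the 18S set as a factor and 2 without the adult 18S set. It was 0 with the probe sets of each gene averaged and 0 with only the groups compared, and it ran from 0 to 7 with 1 array left out. The shares of all genes called under these settings are not given here. In control adult against newborn hearts the replicate block lost Rfc2 (-0.56, adjusted p = 0.0562) and gained Tyms, and it changed no other call of a replication gene. For transgenic adult against control adult hearts, Rrm2 stayed called in 18 of 23 settings (adjusted p from 0.0109 to 0.115). Those settings include fits that left out a newborn array only and kept every adult array. In newborn hearts and for the difference between ages, limma called 0 replication genes in every setting run. The counts of falls ran from 27 to 31 in transgenic hearts and from 21 to 29 in control hearts; 25 of the 29 and 20 of the 27 genes were called in every setting in which they were tested. The exceptions were Mcm10, Pold1, Prim2 and Tyms in transgenic hearts, and Cdc45, Cdc6, Mcm2, Mcm10, Pole2, Prim2 and Rfc2 in control hearts. Rfc2 in control hearts was the least steady. It also missed the threshold with all probe sets fitted (adjusted p = 0.0531) and with cyclic loess (adjusted p = 0.104). Leaving out control adult replicate 2 or replicate 3 lost Cdc6 and Prim2 in control hearts. Mcm10 in control hearts turned to 0.0018 (adjusted p = 0.991) with the mean of its probe sets, 1 of which was higher in adults. The filter on low values left 33 of the 34 genes. Signals low on the scale, as for Tyms, adult Cdc6 and Rrm2 in control adult hearts, limit the size of change that an array can show.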
